A study of Mus musculus with 6 samples.

Results

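G protein-coupled receptors are membrane proteins that carry a signal from outside the cell to G proteins and arrestins inside it. The receptors described here are the protein-coding genes of the deposited table whose symbols match the names of this superfamily (among them Adr, Adgr, Chrm, Ednr, F2r, Gpr, Lgr, Ptg, S1pr, Olfr and Vmn), 20 of 2031 genes. The same names take 1747 protein-coding genes of the mouse annotation, of which 1479 are chemosensory, and all 20 deposited genes are among the other 268. The RNA came from the J1 line of mouse embryonic stem cells (strain 129S4/SvJae), a single line, which was led towards heart muscle in hanging drops with embryoid bodies formed over 3 days. One group, NC with 3 libraries, grew in a conventional incubator, and the other, MF with 3 libraries, under a static magnetic field in the incubator. The sources used here do not give field strength, exposure time or day of collection. The series describes biological triplicates without saying whether these were separate cultures, so p-values measure the spread between these libraries.

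The deposited genes had already been selected on this contrast: in the authors' deposited table the largest adjusted p is 0.0499, and the smallest absolute log2 fold change is 1.001. A difference between the groups is therefore a condition of being in the table, and other receptors were not analysed here. Library totals recovered from the deposited values ran from 14929232 to 19176383 counts. Levels are in FPKM, which scales counts to gene length and library total. Replicate 2 stood apart in both groups: the chi-square per degree of freedom between NC replicates 1 and 3 was 19.8, against 96.6 and 115 for the pairs with NC replicate 2, and 28.5 between MF replicates 1 and 3, against 237 and 163 for the pairs with MF replicate 2. The 12 cardiomyocyte markers deposited of 14 listed summed to between 37.3 and 78.7 FPKM in NC, and to 718, 143 and 366 FPKM in MF replicates 1, 2 and 3. The 9 mesenchyme markers deposited of 10 listed summed to between 89.1 and 245 FPKM in NC, and to 1149, 223 and 973 FPKM in MF replicates 1, 2 and 3. Each of these markers is higher in MF in the authors' deposited table, and none was at 0 in every NC library. In RNA from whole cultures, fewer cells of a type and less RNA per cell cannot be told apart, and the part of these cell types in the receptor levels was not tested.

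Receptors of this kind are sorted by the ligand they bind. Some sense amines such as noradrenaline and acetylcholine, others peptides, lipids or proteases, and adhesion receptors bind neighbouring cells and matrix. In the embryo they guide migrating cells, vessel growth and the rate and force of the early heartbeat. The 20 genes comprise 3 of 37 annotated aminergic and muscarinic receptors (Adra2b, Adrb1, Chrm2), 7 of 67 peptide and chemokine receptors (Ackr3, Avpr1b, Ednra, Ednrb, Mrgprf, Npy1r, Ntsr1), 3 of 22 lipid receptors (Ptgfr, S1pr1, S1pr3), 1 of 4 protease-activated receptors (F2r), 3 of 27 adhesion receptors (Adgra2, Adgrg6, Adgrl3) and 3 of 73 receptors with a number for a name (Gpr50, Gpr153, Gpr173). No gene of the nucleotide, leucine-rich repeat and hormone, class C or chemosensory groups was in the table. All 20 are listed as receptors by their names; Ackr3 is an atypical chemokine receptor that works through arrestin and not through G proteins.

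The direction was nearly uniform. According to the authors' deposited table, higher levels in MF were found for 19 receptors and a lower level for 1, Mrgprf, while 63.2% of all deposited genes are higher. In all 19 every MF library lay above every NC library, as it did in 59.3% of the 1983 named genes, and Mrgprf had every MF library below every NC library, as did 33.7%. For Avpr1b, Chrm2 and Ntsr1 the lowest MF library held 2, 4 and 3 counts, so their separation rests on few reads. Averaged over the 6 libraries, 12 receptors reached 0.5 FPKM, each of which also did so in NC alone, the lowest being 0.651 FPKM; the other 8 were below it and were not tested. All 12 rose in MF at an adjusted p under 0.05 (edgeR, quasi-likelihood, Benjamini-Hochberg over the 1651 tested genes). That test called 62.1% of the tested genes higher, 35.4% lower and 97.5% in either direction. A call for all 12, whatever its direction, is thus near the 97.5% background of this selected table. Their shared direction stands beside the 62.1% called higher and was not tested as a set. The adjusted p-values given below for single receptors come from this same selected table. Adjusted over the 19071 tests that the authors' deposited p-values imply, edgeR called 0 receptors and 0.0% of the tested genes higher. The median log2 fold change was 1.79 over the 12 receptors, beside 1.63 over all tested genes called higher and 1.22 over all tested genes.

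**Figure D1:**
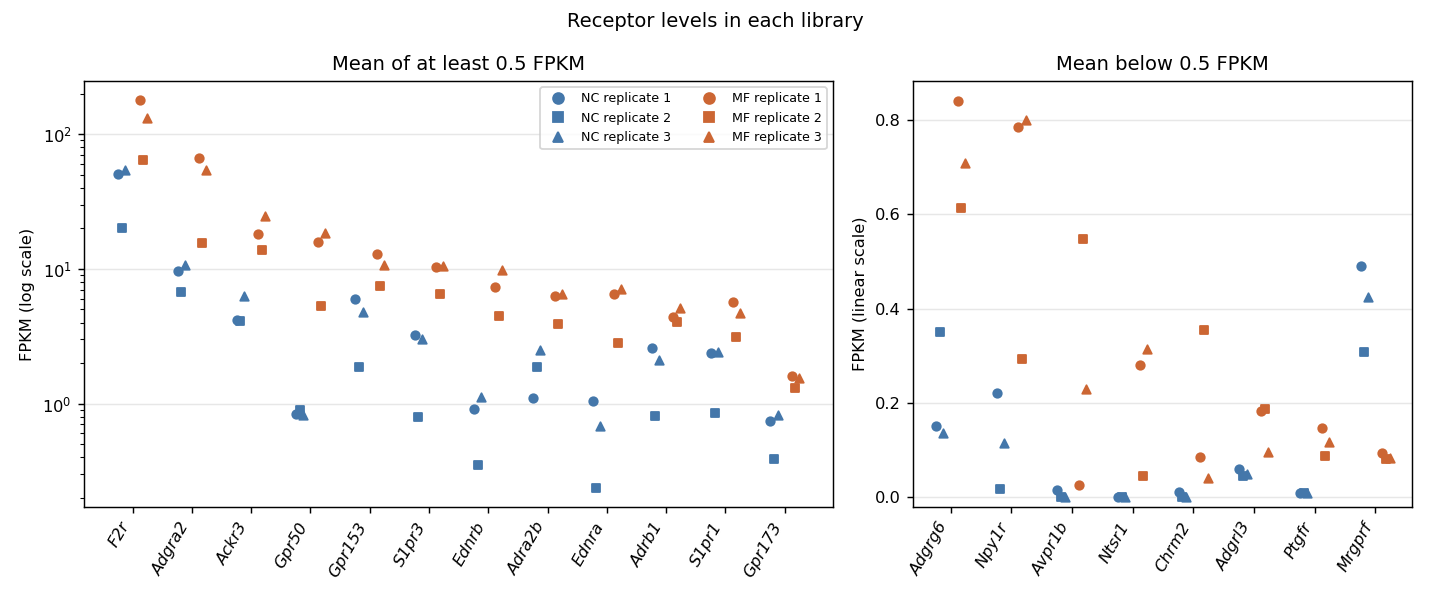
Level of each of the 20 receptors in FPKM in every library, on a log axis for the 12 tested receptors and a linear axis for the 8 with a lower mean; NC is blue, MF orange, and the marker shape gives the replicate number. F2r and Adgra2 are highest in both groups, Mrgprf is the receptor that is lower in MF, and MF replicate 2 (orange square) is the lowest MF library for all 12 tested receptors.

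Among the peptide receptors, both endothelin receptors rose from under 1 FPKM on average in NC to several FPKM in MF. Endothelin receptors bind the endothelin peptides; Ednra is needed for the pharyngeal arches and outflow tract, and Ednrb for neural crest cells that form pigment cells and gut neurons. Ednrb (mm10 chromosome 14, 103814625 to 103844402, minus strand) stood at 0.913, 0.349 and 1.11 FPKM in NC replicates 1, 2 and 3 and at 7.37, 4.44 and 9.88 FPKM in MF replicates 1, 2 and 3. The lowest MF library was 3.98 times the highest NC library, so the groups were well apart. Ednrb rose 9.11-fold (log2 fold change 3.19, SE 0.57, adjusted p = 0.0111 by edgeR). Ednra (mm10 chromosome 8, 77663031 to 77724464, minus strand) stood at 1.05, 0.238 and 0.685 FPKM in NC and at 6.54, 2.83 and 7.08 FPKM in MF. It rose 8.33-fold (log2 fold change 3.06, SE 0.63, adjusted p = 0.0123 by edgeR), again with replicate 2 lowest in each group. Of the 8 listed neural crest markers only Snai2 and Ednrb itself were deposited, so their sum contains the Ednrb levels given above. It was 0.656 to 2.37 FPKM in NC and 6.97 to 20.6 in MF, and neither gene was at 0 in all NC libraries. This sum is thus not separate from the receptor, and the part of neural crest cells was not tested.

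The level of Ednra relative to Ednrb did not separate the groups. The ratio of their FPKM values was 1.15, 0.682 and 0.614 in NC replicates 1, 2 and 3 and 0.888, 0.637 and 0.717 in MF replicates 1, 2 and 3, and the groups overlapped. The 250 bases before the RefSeq transcription start of each gene (GRCm38.p6, the build of mm10) are shown because the pair rose together. Capitals mark 3 short promoter motifs searched on both strands, the TATA box TATAAA, the CCAAT box CCAAT and the GC box GGGCGG. The Ednra window is chr8:77724453-77724702 and the Ednrb window chr14:103843702-103843951, both on the minus strand and printed 5′ to 3′.
Ednra: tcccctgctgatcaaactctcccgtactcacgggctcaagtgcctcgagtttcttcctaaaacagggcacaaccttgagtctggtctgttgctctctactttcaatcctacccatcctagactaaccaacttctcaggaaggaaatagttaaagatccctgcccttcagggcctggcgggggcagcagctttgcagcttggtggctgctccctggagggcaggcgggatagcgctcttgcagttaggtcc
Ednrb: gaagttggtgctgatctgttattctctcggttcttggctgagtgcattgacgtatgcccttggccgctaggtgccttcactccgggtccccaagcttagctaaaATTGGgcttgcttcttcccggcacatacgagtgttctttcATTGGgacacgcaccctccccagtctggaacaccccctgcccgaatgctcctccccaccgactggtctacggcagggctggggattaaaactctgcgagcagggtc
The last 12 bases of the Ednra window lie in an annotated exon of the gene. The Ednrb window lies within the span of the gene given above, outside its annotated exons. The Ednra window held none of the 3 motifs and the Ednrb window held 2 CCAAT boxes. Of all 32851 RefSeq windows of this length, 12.4% held the TATA box, 33.8% the CCAAT box and 32.7% the GC box.

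Ackr3, the scavenger receptor for the chemokine Cxcl12 that shapes its gradients in the embryo, came next after F2r and Adgra2 in mean level in both groups. It lies on mm10 chromosome 1 (90203980 to 90216751, plus strand). It stood at 4.20, 4.12 and 6.28 FPKM in NC replicates 1, 2 and 3 and at 18.3, 13.7 and 24.6 FPKM in MF replicates 1, 2 and 3. Even the lowest MF library was 2.19 times the highest NC library. Ackr3 rose 3.88-fold (log2 fold change 1.95, SE 0.41, adjusted p = 0.0123 by edgeR), the smallest standard error among the 12 tested receptors.

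The other 4 peptide receptors had few reads. Npy1r, a receptor of neuropeptide Y, stood at 0.222, 0.0180 and 0.116 FPKM in NC and 0.785, 0.293 and 0.800 FPKM in MF, from 19 counts in NC and 114 in MF. Ntsr1, a neurotensin receptor, had 0 counts in all NC libraries and 21, 3 and 20 counts in MF replicates 1, 2 and 3, at least 13.1-fold higher in MF when 3 counts are set in place of 0 for the NC group as a whole. Avpr1b, a vasopressin receptor best known from the pituitary, had 1 count in NC, all in replicate 1, and 2, 37 and 15 counts in MF. Its ratio of counts per library total was 48.3, with an exact 95% interval from 8.30 to 1941; this and the other intervals of counts cover counting error alone. Its order among the MF libraries differed from that of the tested receptors, as replicate 2 was highest and replicate 1 was close to NC replicate 1. Mrgprf, an orphan receptor of the Mas-related family, was the receptor that went the other way, at 0.490, 0.308 and 0.424 FPKM in NC and 0.0942, 0.0807 and 0.0833 FPKM in MF, from 42 counts in NC and 10 in MF.

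Both deposited sphingosine-1-phosphate receptors rose, S1pr3 by more than S1pr1. These receptors bind a blood-borne lipid; S1pr1 is needed for vessel maturation and is abundant in endothelial cells, and S1pr3 is found in smooth muscle and heart. S1pr3 (mm10 chromosome 13, 51408639 to 51422797, plus strand) stood at 3.25, 0.793 and 3.02 FPKM in NC replicates 1, 2 and 3 and at 10.3, 6.48 and 10.5 FPKM in MF replicates 1, 2 and 3. NC replicate 2 was well below the other NC libraries. S1pr3 rose 3.87-fold (log2 fold change 1.95, SE 0.55, adjusted p = 0.0220 by edgeR). S1pr1 (mm10 chromosome 3, 115710433 to 115715072, minus strand) stood at 2.37, 0.856 and 2.42 FPKM in NC and at 5.67, 3.15 and 4.74 FPKM in MF. Its groups were closer, with the lowest MF library at 1.30 times the highest NC library. S1pr1 rose 2.40-fold (log2 fold change 1.26, SE 0.53, adjusted p = 0.0421 by edgeR). Of the 10 endothelial markers listed, 6 were deposited, 5 higher and 1 (Pecam1) lower in MF, and none was at 0 in all NC libraries. Their sum overlapped between the groups, at 13.5 to 44.5 FPKM in NC and 25.3 to 47.5 in MF. The 3 smooth muscle or pericyte markers deposited of 8 listed were Pdgfrb, Rgs5 and Myocd. All are higher in MF in the authors' deposited table, and none was at 0 in all NC libraries. Their sum did not overlap between the groups. Every MF library also lay above every NC library in 59.3% of the 1983 named genes, all selected on this contrast. The sum was 2.51 to 4.29 FPKM in NC and 22.5, 6.94 and 17.99 FPKM in MF replicates 1, 2 and 3. It was lowest in MF replicate 2, as S1pr3 was. Of the 1216 named genes higher in MF with more than 3 counts in NC, 79.9% were lowest there. The part of these cells was not tested.

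The level of S1pr3 relative to S1pr1 was higher in every MF library than in any NC library. The ratio of S1pr3 to S1pr1, which does not depend on how libraries are scaled, was 1.37, 0.926 and 1.25 in NC replicates 1, 2 and 3 and 1.82, 2.06 and 2.22 in MF replicates 1, 2 and 3. This held for replicate 2 of MF as for the other replicates. Ratios were computed for 4 pairs, chosen after the values were seen, and are given without a test; the groups overlapped in the other 3 pairs. Ptgfr, which binds prostaglandin F2alpha, had 1 count in each NC library and 19, 10 and 13 counts in MF, a ratio of 12.5 with an exact 95% counting interval from 3.998 to 63.1.

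**Figure D2:**
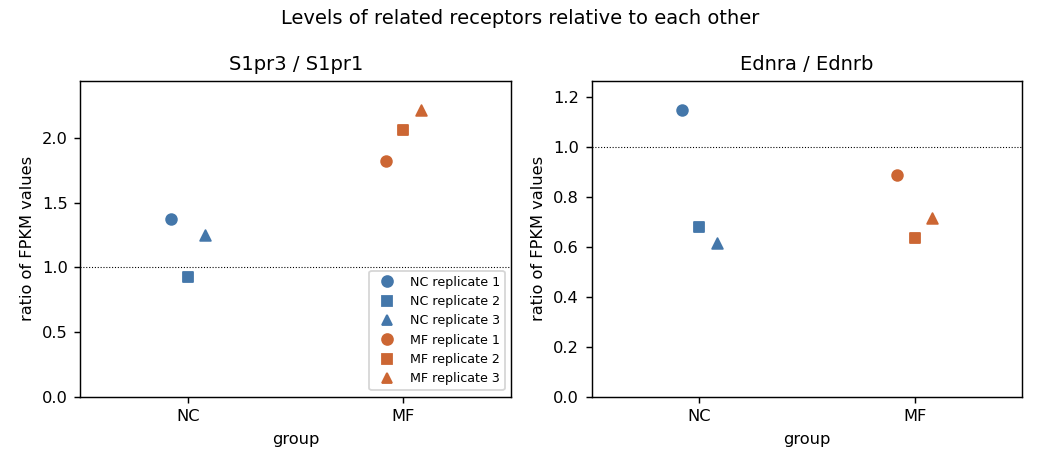
Ratio of the FPKM values of S1pr3 to S1pr1 (left) and of Ednra to Ednrb (right) in each library, by group; NC is blue, MF orange, the marker shape gives the replicate number and the dotted line is a ratio of 1. The S1pr3 to S1pr1 ratio is 0.926 to 1.37 in NC and 1.82 to 2.22 in MF, while the Ednra to Ednrb ratios of the groups overlap.

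F2r, the thrombin receptor PAR1, was the most abundant receptor in every library. It is opened by cleavage of its outer end and acts in vessels and in the early embryo. F2r (mm10 chromosome 13, 95601803 to 95618487, minus strand) stood at 51.0, 20.1 and 53.9 FPKM in NC replicates 1, 2 and 3 and at 179, 64.8 and 132 FPKM in MF replicates 1, 2 and 3. The groups were separate but near each other, because MF replicate 2 was 1.20 times the highest NC library. F2r rose 3.00-fold (log2 fold change 1.59, SE 0.53, adjusted p = 0.0271 by edgeR).

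Among receptors for amines, the adrenergic receptors Adra2b and Adrb1 rose from about 2 to about 5 FPKM, and the muscarinic receptor Chrm2 was barely detected. Adrb1 raises the rate and force of the heartbeat, Chrm2 slows it, and Adra2b constricts vessels and is also needed for placental vessels. Adrb1 (mm10 chromosome 19, 56722199 to 56733113, plus strand) stood at 2.59, 0.808 and 2.10 FPKM in NC and at 4.36, 4.05 and 5.16 FPKM in MF. The 3 MF libraries were close to each other, and the spread lay in NC. Adrb1 rose 2.47-fold (log2 fold change 1.30, SE 0.52, adjusted p = 0.0356 by edgeR). Adra2b (mm10 chromosome 2, 127363208 to 127367221, plus strand) stood at 1.098, 1.86 and 2.49 FPKM in NC and 6.31, 3.90 and 6.51 FPKM in MF, and it was one of the 2 tested receptors for which NC replicate 2 was not the lowest NC library. It rose 3.07-fold (log2 fold change 1.62, SE 0.47, adjusted p = 0.0234 by edgeR). Chrm2 had 1 count in NC and 10, 36 and 4 counts in MF replicates 1, 2 and 3, a ratio of 44.7 with an exact 95% counting interval from 7.66 to 1800. Like Avpr1b it was highest in MF replicate 2. The 1 neuron marker deposited of 10 listed, Dcx, was also highest there, at 0.144, 1.62 and 0.403 FPKM in MF replicates 1, 2 and 3 and at 0 to 0.0794 FPKM in NC; its part in these levels was not tested.

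The promoter windows of these receptors are shown because these receptors for amines differ in level, with Chrm2 far below the adrenergic receptors. They cover chr2:127362929-127363178 for Adra2b, chr19:56721867-56722116 for Adrb1 and chr6:36387834-36388083 for Chrm2, all on the plus strand of GRCm38.p6 and with the same motifs in capitals.
Adra2b: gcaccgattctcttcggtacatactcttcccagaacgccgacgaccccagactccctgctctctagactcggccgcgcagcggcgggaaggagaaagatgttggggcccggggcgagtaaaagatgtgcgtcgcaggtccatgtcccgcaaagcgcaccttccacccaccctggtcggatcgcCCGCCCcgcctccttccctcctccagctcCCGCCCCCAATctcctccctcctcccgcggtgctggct
Adrb1: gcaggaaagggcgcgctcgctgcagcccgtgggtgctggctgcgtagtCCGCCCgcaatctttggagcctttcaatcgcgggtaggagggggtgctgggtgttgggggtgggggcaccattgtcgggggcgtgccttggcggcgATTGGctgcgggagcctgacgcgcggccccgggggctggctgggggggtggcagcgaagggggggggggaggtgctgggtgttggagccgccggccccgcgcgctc
Chrm2: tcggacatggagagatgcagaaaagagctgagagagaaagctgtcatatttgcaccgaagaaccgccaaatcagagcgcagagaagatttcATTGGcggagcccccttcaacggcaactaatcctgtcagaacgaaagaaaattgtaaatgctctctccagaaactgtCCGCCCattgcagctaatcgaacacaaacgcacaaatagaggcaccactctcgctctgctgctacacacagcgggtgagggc
Each of these windows held a CCAAT box, on either strand, and at least 1 GC box, and none held a TATA box; the CCAAT box of Adra2b directly follows a GC box. Their GC content was 66%, 74% and 50%, beside a median of 52.4% over all windows.

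The adhesion receptor Adgra2 was the second most abundant receptor. Adgra2 (also called Gpr124) works with Reck to pass Wnt7 signals and is needed for vessels of the brain. It lies on mm10 chromosome 8 (27085583 to 27123436, plus strand) and stood at 9.62, 6.74 and 10.7 FPKM in NC replicates 1, 2 and 3 and at 66.6, 15.6 and 54.2 FPKM in MF replicates 1, 2 and 3. MF replicate 2 stood at 0.258 times the mean of the other MF libraries, the lowest such value among the tested receptors. Adgra2 rose 5.04-fold (log2 fold change 2.33, SE 0.55, adjusted p = 0.0153 by edgeR). Adgrg6 (Gpr126), which binds collagen and is needed for myelin and for heart trabeculae, stood just under the filter at 0.151, 0.350 and 0.137 FPKM in NC and 0.840, 0.613 and 0.708 FPKM in MF; here NC replicate 2 was the highest NC library. Adgrl3, a latrophilin that binds teneurin and FLRT proteins, had 43 counts in NC and 146 in MF, with 0.0612, 0.0455 and 0.0491 FPKM in NC and 0.182, 0.188 and 0.0969 FPKM in MF.

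Of the receptors with a number for a name, Gpr50 showed the largest rise of all tested receptors. Gpr50 is a relative of the melatonin receptors that binds no melatonin itself. It lies on the X chromosome of mm10 (71663667 to 71669257, plus strand) and stood at 0.832, 0.890 and 0.829 FPKM in NC replicates 1, 2 and 3, nearly the same in each, and at 15.8, 5.31 and 18.5 FPKM in MF replicates 1, 2 and 3. The lowest MF library was 5.97 times the highest NC library. Gpr50 rose 15.5-fold (log2 fold change 3.95, SE 0.55, adjusted p = 0.00707 by edgeR). The orphan receptor Gpr153 stood at 5.95, 1.87 and 4.80 FPKM in NC and 13.0, 7.51 and 10.7 FPKM in MF, and rose 2.47-fold (log2 fold change 1.31, SE 0.49, adjusted p = 0.0321 by edgeR). Gpr173, an orphan receptor of a conserved brain family, stood at 0.738, 0.389 and 0.826 FPKM in NC and 1.60, 1.30 and 1.54 FPKM in MF, and rose 2.28-fold, the smallest rise of the 12 (log2 fold change 1.19, SE 0.51, adjusted p = 0.0454 by edgeR).

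**Figure D3:**
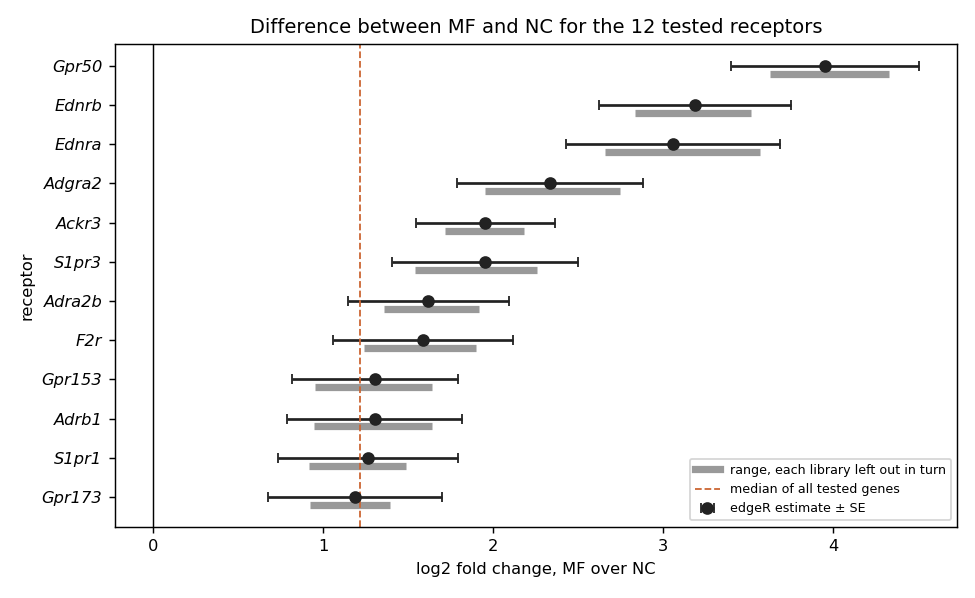
Log2 fold change of MF over NC for the 12 tested receptors, with its standard error (black) and the range when each of the 6 libraries is left out in turn (grey); the dashed line is the median of all tested genes, 1.22. Gpr50 (3.95), Ednrb (3.19) and Ednra (3.06) lie farthest to the right, and Gpr173 (1.19) lies close to the median of the table.

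The order of levels was much the same in both groups. F2r, Adgra2 and Ackr3, in that order, had the highest means in NC and in MF, and Gpr50 went from rank 9 to rank 4. F2r and Adgra2 alone made up 67.5% to 71.9% of the summed FPKM of the 20 receptors in the NC libraries and 59.4% to 72.8% in the MF libraries. Some neighbours in the order, such as Adrb1 and S1pr1 in MF at 4.52 ± 0.573 and 4.52 ± 1.28 FPKM (SD, n = 3), did not differ beyond their spread. The same held for Ackr3 and Gpr153 in NC, at 4.87 ± 1.23 and 4.21 ± 2.10 FPKM. In NC replicate 1 Gpr153 was above Ackr3, at 5.95 against 4.20 FPKM. The sum over all 20 was 84.5, 39.7 and 89.9 FPKM in NC replicates 1, 2 and 3 and 337, 135 and 288 FPKM in MF replicates 1, 2 and 3.

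The rise was not equally shared by the MF libraries. Within MF, all 12 tested receptors were lowest in replicate 2, and within NC 10 of them were lowest in replicate 2. Of the 15 higher receptors with more than 3 counts in NC, 14 had MF replicate 2 lowest, 12 had NC replicate 2 lowest and 11 had both. Of the 1216 named genes higher in MF with such counts, the shares were 79.9%, 71.7% and 57.1%. How far MF replicate 2 fell short differed between receptors. Its level was 0.258 times the mean of MF replicates 1 and 3 for Adgra2, 0.310 for Gpr50, 0.415 for Ednra and 0.418 for F2r. For Gpr173 and Adrb1 it was 0.831 and 0.850, so these receptors were at similar levels in all MF libraries. The cardiomyocyte and mesenchyme marker sums given above were also lowest in MF replicate 2. Those markers of the starting cells and of germ cells that are in this selected table went the other way. The other listed ones were not analysed here. The 3 naive pluripotency markers deposited of 12 listed (Klf2, Dppa3 and Prdm14) are all lower in MF in the authors' deposited table and summed to 162, 416 and 142 FPKM in NC replicates 1, 2 and 3 and to 56.2, 99.1 and 43.7 FPKM in MF. The 7 germ cell markers deposited of 9 listed, Dppa3 among them, are also all lower there and summed to 71.4, 176 and 62.4 FPKM in NC and to 7.72, 27.9 and 11.3 FPKM in MF. Both sums were highest in replicate 2 of each group, where most tested receptors were lowest; none of these markers was at 0 in all NC libraries, and their part in the receptor levels was not tested.

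Gene structure and promoter composition, which the choice by name did not use, varied among the receptors. A coding sequence in a single exon was found in 7 of the 20 genes (Ackr3, Adra2b, Adrb1, Chrm2, Gpr173, S1pr1 and S1pr3), and the proteins ran from 343 residues in Mrgprf to 1580 in Adgrl3 by the GENCODE M21 models. RefSeq promoter windows matched 16 of the 20 receptors by symbol, 19 windows in all. Some of them lie partly or wholly in exons that GENCODE annotates for the same gene. This holds for all 250 bases of the Adgrg6 window and of windows of Adgrl3. It holds for 230 bases in Npy1r, 130 in a window of Gpr153 and 102 in Ptgfr. The GC box was present in 14 of the 19 windows, beside 32.7% of all windows. Adgrl3 has 3 of these 19 windows, some of which overlap, and Gpr153 has 2. By gene, 11 of the 16 receptors had the GC box in at least 1 window, and no share by gene was computed for the annotation. The median GC content of the receptor windows was 60%, against 52.4% over all windows, and its part in the share of this GC-rich motif was not tested. The TATA box was present in 10.5% of the receptor windows and the CCAAT box in 31.6%, close to the 12.4% and 33.8% of all windows. The GATA motif AGATAA, searched on both strands, was in none of the 19 windows and in 9.99% of all windows. Overlap with an annotated gene on the opposite strand touched 8 receptors, over 45 to 1582 exonic bases. Strand use and the handling of shared reads in the counting are not given. Reads of the partner genes could be included, or reads of the receptors left out. The tested receptors with such an overlap are Adgra2, Ednra, Gpr173 and S1pr3.

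Of 50 listed ligands of receptors and enzymes that make them, 12 were deposited, and of the 10 tested 8 rose and 2 fell, with a median log2 fold change of 1.98. Of all genes tested, themselves selected on this contrast, 62.1% were called higher and 35.4% lower, with a median of 1.22. Ece1, which cuts endothelins to their active form, stood at 9.15, 5.59 and 9.10 FPKM in NC and 32.3, 10.3 and 25.9 FPKM in MF and rose 2.87-fold (adjusted p = 0.0253 by edgeR). Edn3, a ligand of Ednrb, named here after its values were seen, rose 7.13-fold from 0.206 ± 0.102 to 1.47 ± 0.181 FPKM (SD, n = 3 libraries each, here and below). Unlike its receptor it was at similar levels in the MF libraries, at 1.32, 1.43 and 1.67 FPKM. Cxcl12, the ligand of Ackr3, rose 7.07-fold from 2.04 ± 1.02 to 14.4 ± 9.07 FPKM, and MF replicate 2 was lowest, at 23.3, 5.14 and 14.8 FPKM in MF. Apela, a ligand of the apelin receptor, fell 2.57-fold from 38.5 ± 15.7 to 14.9 ± 5.61 FPKM. Sst, somatostatin, had overlapping groups, at 2.13, 0.172 and 2.97 FPKM in NC and 2.46, 29.6 and 7.75 FPKM in MF. Its 7.54-fold rise had an adjusted p of 0.0309 by edgeR, which became 0.117 with the replicate number as a block and 0.165 without MF replicate 2. Nppb, listed here although its receptor is a guanylyl cyclase and not a G protein-coupled receptor, rose 2.73-fold (adjusted p = 0.0326 by edgeR). Leaving out 1 library in turn put that p between 0.0448 and 0.0875, under 0.05 solely without NC replicate 3.

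All 4 G protein subunits and all 9 effectors in the authors' deposited table are higher in MF there, as are 63.2% of all deposited genes. Of the 4 subunits (33 listed), all tested, 3 rose. Gng12 rose 2.06-fold from 8.90 ± 1.97 to 18.3 ± 4.94 FPKM. Gnaq, the alpha subunit that activates phospholipase C beta, rose 2.12-fold from 4.66 ± 0.0852 to 9.90 ± 1.70 FPKM. Gnao1, of the Gi family, rose 3.10-fold from 0.794 ± 0.390 to 2.46 ± 0.281 FPKM. Gng7 stood at 0.653 ± 0.102 FPKM in NC and 1.34 ± 0.132 FPKM in MF, with an adjusted p of 0.0678 by edgeR. Of the effectors (58 listed) all 6 tested rose, in a table where 97.5% of the tested genes were called and 62.1% called higher. Adcy6, an adenylyl cyclase of heart muscle, rose 2.85-fold from 3.68 ± 1.57 to 10.5 ± 4.40 FPKM. The protein kinase C genes Prkce and Prkch rose 3.07-fold and 2.03-fold. The phosphodiesterases Pde4b and Pde3a, which break down cyclic AMP, rose 3.92-fold and 5.74-fold, with overlapping groups for Pde3a. With median-of-ratios scaling the log2 fold changes of Prkch, Gng12 and Gnaq were slightly below 0.

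Of 53 listed RGS proteins, receptor kinases, arrestins and receptor partners 4 were deposited, of which 2 rose and 2 fell. Rgs5, which shortens G protein signals and marks pericytes, rose 8.15-fold from 0.560 ± 0.575 to 4.56 ± 1.47 FPKM. Rtp4, an interferon-induced chaperone of receptors, rose 4.63-fold from 1.22 ± 0.382 to 5.68 ± 1.42 FPKM. Arrb2, the beta-arrestin that takes receptors off the surface, fell 2.27-fold from 20.0 ± 1.007 to 8.84 ± 2.05 FPKM. Ramp3, which sets the ligand of the calcitonin receptor-like receptor, fell 3.80-fold from 11.99 ± 4.17 to 3.15 ± 2.50 FPKM. Of 104 other G protein-coupled receptors outside the chosen names 4 were deposited and all 3 tested rose, the Wnt receptors Fzd1 and Fzd4 4.48-fold and 4.50-fold and the planar polarity cadherin Celsr1 2.26-fold. Over the 5 lists together 22 of 27 tested genes rose and 4 fell, with a median log2 fold change of 1.56, beside 62.1% and 35.4% of all tested genes and a median of 1.22.

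**Figure D4:**
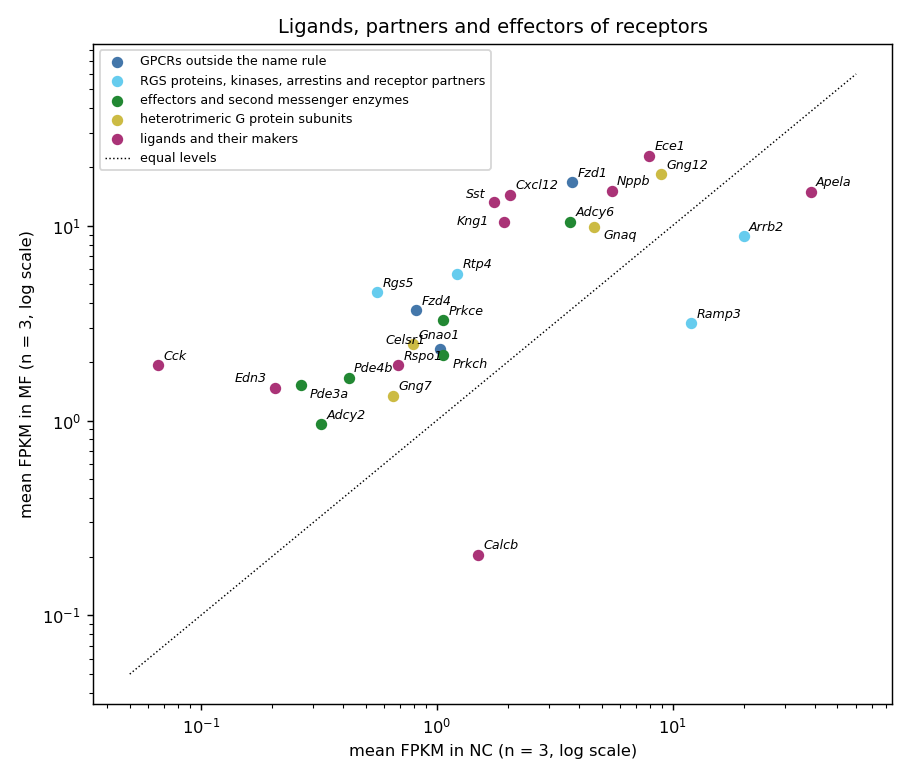
Mean FPKM in NC and in MF (n = 3 libraries each, both axes on a log scale) of the 27 tested ligands, G protein subunits, regulators, effectors and further receptors; the dotted line marks equal levels. Most points lie above the line, and Apela, Arrb2, Ramp3 and Calcb lie below it.

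How many receptors were called depended on the adjustment, the scaling and single libraries. With the p-values adjusted over the 19071 tests that the authors' deposited p-values imply, edgeR called 0 receptors (0.0% of the tested genes), although all 12 had an unadjusted p under 0.05, as did 1613 of the 1651 tested genes; over those tests the block fit called 7 receptors (22.8% of the tested genes higher) and DESeq2 7 (29.0%). TMM and median-of-ratios scaling, computed on the selected genes alone, called Ackr3, Ednra, Ednrb and Gpr50 (10.9% and 9.57% of the tested genes higher). Leaving out MF replicate 3 left 1 receptor, Gpr50 (0.727%), and leaving out NC replicate 1, NC replicate 2, NC replicate 3 or MF replicate 1 left 6 (25.6%), 7 (35.7%), 8 (38.1%) and 6 (21.6%). All 12 were called without MF replicate 2 (60.3%) and without both replicates 2 (62.2%), as they were with the block (62.4%), DESeq2 (63.7%) and limma at pseudocounts of 1 and 0.1 (61.9% and 61.8%). A filter at 2 FPKM tested and called 11 (59.1%), and no filter called 19 higher (62.8%) and Mrgprf lower (34.9%). Gpr50 was called in all 6 settings that leave out 1 library, Ednra, Ednrb, Adgra2, Ackr3 and S1pr3 in 5, Adra2b in 3, F2r in 2, and Adrb1, Gpr153, Gpr173 and S1pr1 in 1 each.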

How the data were processed

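RNA from poly-A selected libraries was measured in 3 NC and 3 MF samples, grouped by their titles. The submitters' processing notes name HISAT2 2.0.5, featureCounts and mm10 with no settings; for strand use and for the tool of the comparison, the sources used here give nothing. The deposited files give, per the file headers, a raw count, an FPKM value and a normalized signal for each gene and library. They also hold the authors' p-value, its adjusted value, the log2 fold change and the gene length. Library totals were recovered from the deposited count, length and FPKM. Gene coordinates equalled GENCODE M21 (GRCm38) for 1961 of 2031 genes. The 48 rows with no gene name (0.0134% to 0.0390% of the totals) stayed out; 4 names turned into dates were restored by ID.

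The 1651 named genes that averaged 0.5 FPKM or more were fitted at once with edgeR 4.0.16 (quasi-likelihood, two-sided, group alone in the model, library sizes set to the recovered totals; R 4.3.3) and adjusted over all of them at 0.05. "Rose" and "fell" refer to that test. Fold changes come from the fit and the SE is the log2 fold change divided by the root of F. Because the table was selected on these libraries, that adjustment gives no error rate for the genome. Members, lists and tests were chosen with earlier results of these data known. Receptors are named by level: all above the filter, and those below it with their counts; partners are the up to 5 with the highest mean per list, with Edn3 and Calcb named after their values were seen. A floor of 3 counts over a group replaces 0, and 1 to 3 counts are given as a ratio with an exact 95% interval.

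Replicate numbers are shared between groups. For numbers 1, 2 and 3, an NC and an MF library with the same number deviated from the means of their groups with correlations over genes of 0.378, 0.551 and 0.374, so the numbers were taken as pairs for the block; this comes from the values, not from a label, and NC replicate 3 correlated more with MF replicate 1 (0.559). No 2 libraries of a group agreed within counting noise (chi-square per degree of freedom 19.8 to 237). The fit was also run on simulated counts with less spread between libraries than these data. The common biological coefficient of variation fitted here, a measure of that spread, was 0.506. No conclusion on these data is drawn from that run. Alternatives were other filters, scalings, DESeq2 1.42.0, limma 3.58.1 on log2(FPKM + 1) and log2(FPKM + 0.1), the block, and left-out libraries; DESeq2 and the block over the recovered tests were added after the data were seen. Promoter windows are from RefSeq (GRCm38.p6), upstream of the transcription start only, and no protein sequences were used here.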

Additional observations from a re-analysis of the deposited data

How the results depend on the processing

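Against 12 receptors called higher and 0 lower, no filter gave 19 higher and 1 lower (Mrgprf), since it tests all 20. TMM and median-of-ratios scaling on this selected table moved the median log2 fold change of all tested genes by -0.98 and -1.06. They called 4 receptors each (Ackr3, Ednra, Ednrb and Gpr50), beside 180 and 158 genes higher and 596 and 507 lower of all tested (main split 1026 and 584); no receptor reversed. Adjustment over the 19071 recovered tests called 0 receptors higher, 0 partners higher and 0 lower; with the replicate block over those tests 7 receptors and 11 partners were called higher and 0 partners lower, and with DESeq2 7, 13 and 1. The fit with the replicate number as a block (pairing) called 12 receptors higher, 21 partners higher and 4 lower, and changed no call but that of Sst among the named genes. Leaving out 1 library in turn gave 1 to 12 receptors higher, 0 to 20 partners higher and 0 to 4 lower, against 12, 22 and 4. Partners called higher were 13 with a filter at 2 FPKM, which tests 16, 6 with TMM and 4 with median-of-ratios scaling. Under median-of-ratios scaling Prkch, Gng12 and Gnaq went to log2 fold changes of -0.0439, -0.0332 and -0.00230. DESeq2, limma at both pseudocounts and leaving out both replicate 2 libraries called all 12 receptors. Apart from changes that the construction shows (fewer genes, fewer libraries, more tests, scaling on the selected genes alone), the cause was not tested. At these depths the 8 receptors below the filter rest on 10 to 464 counts in MF and 0 to 123 in NC.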
